A study of Mus musculus with 6 samples.

Results

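The 6 genes that make, move and break down the sulfate donor PAPS (phosphoadenosine phosphosulfate) were examined in forebrains taken at P20 from wild-type and *Slc13a4*+/- mice. They were chosen by their symbols in the GENCODE M21 annotation, with earlier results of these data known. They are 6 of the 35523 genes in the deposited files. All 6 passed the filter on low counts that left 17096 genes for testing. The samples were 3 *Slc13a4*+/- mice (labelled Nas2Del_Het_1024, Nas2Del_Het_1025 and Nas2Del_Het_1027, shortened here to Het_1024 and so on) and 3 wild-type mice (shortened likewise to WT_1016, WT_1018 and WT_1026), 1 whole forebrain each, on a C57BL/6 background. The heterozygotes came from heterozygous sires and wild-type dams, and the controls were wild-type littermates. They lack 1 allele of *Slc13a4*, a sodium-coupled sulfate transporter of the cell membrane. The deleted part of the gene and the litters are not stated in the labels or methods.

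The libraries held 60340337 to 80410582 estimated counts. *Slc13a4* itself was read at 5.60, 6.57 and 5.41 CPM (counts scaled to 1000000 per library after TMM normalization) in the heterozygotes and at 10.4, 9.36 and 8.23 CPM in the wild-type mice, so the labels and the targeted gene pointed the same way in every mouse. The fitted log2 fold change was -0.67 (SE 0.11, adjusted p 0.499 in the quasi-likelihood test of edgeR over all genes), and DESeq2 with length offsets gave an adjusted p of 0.00238. Markers of forebrain identity summed to 193 to 232 CPM and those of cerebellum to 1.73 to 3.69 CPM. WT_1026 stood apart from its group. Chi-square per gene between its counts and those of the other wild-type mice was 35.3 and 41.9, against 7.82 between those 2 and 6.84 to 12.4 among the heterozygotes. WT_1016 was the only one with more than trace reads of the Y-linked gene *Ddx3y* (105 CPM, against at most 0.0331 CPM in the other 5). Values without these mice are given beside several results.

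PAPS is the molecule from which sulfotransferases take the sulfate they attach to proteoglycans, glycolipids, steroids and other acceptors. The synthases PAPSS1 and PAPSS2 each join sulfate to ATP and then phosphorylate the product. The carriers SLC35B2 and SLC35B3 bring PAPS from the cytosol into the Golgi, where most sulfation of glycans takes place. Every transfer leaves PAP (phosphoadenosine phosphate) behind, which is split by the lithium-sensitive phosphatases BPNT1 in the cytosol and IMPAD1 (also named BPNT2) in the Golgi.

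A pair of these genes has short coding exons that are present in some transcripts and skipped in others, and these exons are shown because the protein made depends on them. In *Papss2* (chr19:32595790-32667187, plus strand, GRCm38), exon 8 of transcript Papss2-201 is 15 bases long (chr19:32646329-32646343) and adds 5 residues. In *Bpnt1* (chr1:185332149-185357777, plus strand), exon 7 of transcript Bpnt1-205 is 45 bases long (chr1:185349837-185349881) and adds 15 residues. Below, each exon is in capitals between the 25 bases on either side of it in the spliced transcript, followed by the junction of the transcript that lacks it.
Papss2-201, with the exon: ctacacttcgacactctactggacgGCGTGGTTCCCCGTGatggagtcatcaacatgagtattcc
Papss2-203, without it: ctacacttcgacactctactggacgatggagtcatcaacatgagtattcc
Bpnt1-205, with the exon: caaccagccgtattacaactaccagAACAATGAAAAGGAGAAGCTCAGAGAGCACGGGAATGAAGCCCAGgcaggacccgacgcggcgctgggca
Bpnt1-201, without it: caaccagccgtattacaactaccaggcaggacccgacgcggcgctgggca

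*Papss2* also has 2 annotated starts that lie 24215 bases apart, and the sequences before them are shown because the transcripts of both starts were read in this tissue. They are the 250 bases upstream of the RefSeq start sites (GRCm38.p6, plus strand), with every CpG in capitals. The upstream window is chr19:32595465-32595714, and its RefSeq start lies 75 bases before that of Papss2-202 in GENCODE. The downstream window is chr19:32619755-32620004.
Papss2 upstream start: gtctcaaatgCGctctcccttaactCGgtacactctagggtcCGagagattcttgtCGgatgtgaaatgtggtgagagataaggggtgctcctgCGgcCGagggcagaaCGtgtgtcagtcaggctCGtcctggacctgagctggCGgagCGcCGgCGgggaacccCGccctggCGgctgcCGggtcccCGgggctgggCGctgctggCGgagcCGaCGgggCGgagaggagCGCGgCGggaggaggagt
Papss2 downstream start: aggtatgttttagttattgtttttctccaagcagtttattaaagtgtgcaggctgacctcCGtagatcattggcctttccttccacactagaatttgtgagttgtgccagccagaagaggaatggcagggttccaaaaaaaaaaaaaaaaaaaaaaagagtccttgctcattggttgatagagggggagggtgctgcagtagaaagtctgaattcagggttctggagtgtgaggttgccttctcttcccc
The upstream window held 24 CpG, more than 88.0% of the 32851 promoter windows of the same length, whose median was 6. The downstream window held 1 CpG, and 7.87% of the windows held fewer. TATAAA was searched on both strands and was in neither window, against 12.4% of all windows.

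Measured per transcript length, the PAPS genes differed widely in level. *Bpnt1* had the highest level, 100.5 ± 3.84 TPM (transcripts scaled by length to 1000000 per library, mean ± SD over the 6 mice). *Impad1* followed at 93.3 ± 2.02 TPM and *Papss1* at 85.0 ± 2.43 TPM. These 3 genes were above 86.4% to 88.7% of all tested genes in TPM. The Golgi carrier *Slc35b2* stood at 40.0 ± 2.91 TPM, above 71.1% of tested genes. The second carrier *Slc35b3* was at 12.2 ± 0.587 TPM and the second synthase *Papss2* at 6.80 ± 0.338 TPM. *Papss2* was the lowest member, above 35.3% of tested genes. This order held in 6 of 6 mice and the ranges of neighbours did not overlap, although the steps at the top were small. The ratio of *Bpnt1* to *Impad1* was 1.02 to 1.17 and that of *Impad1* to *Papss1* 1.04 to 1.15. By role, the phosphatases together came to 194 ± 3.62 TPM, the synthases to 91.8 ± 2.56 TPM and the carriers to 52.3 ± 3.18 TPM.

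None of the 6 genes was called different between genotypes. At an adjusted p under 0.1 in edgeR, 0 of 6 were called in either direction, beside 0.00585% of all tested genes. DESeq2 called 0 of 6 with average transcript lengths as offsets (0.502% of its genes were called) and 0 of 6 without them (0.314%). At an unadjusted p under 0.05 in edgeR the count was also 0, against 9.15% of all tested genes in either direction and 4.17% that were lower. That count depended on the filter, since with no filter on low counts *Slc35b2* had an unadjusted p of 0.0217 in edgeR. All 6 log2 fold changes were below 0, as were 52.2% over all genes, and their median was -0.06 against -0.00 for all genes. Between 4 and 6 of them were below 0 when 1 mouse was left out. These p-values rest on the spread between 3 mice of each genotype, with the error of each gene moderated by that of other genes.

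**Figure D1:**
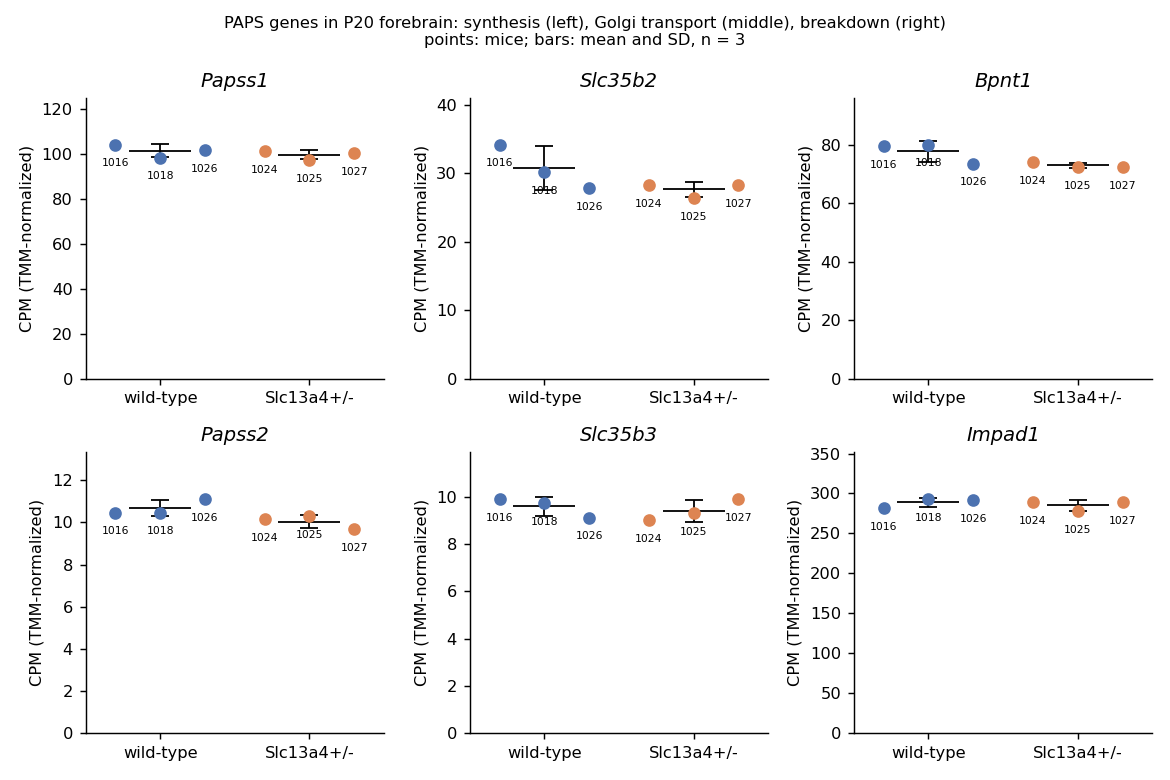
CPM of the 6 PAPS genes in each mouse (y axis, TMM-normalized, starting at 0) by genotype (x axis), with the mouse number under each point and bars for the mean and SD of 3 mice. The genotypes overlap for every gene except *Papss2*, where the heterozygotes lie at 9.68 to 10.3 CPM and the wild-type mice at 10.5 to 11.1 CPM.

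*Papss1* (chr3:131564768-131643671, plus strand), the main PAPS synthase by level, did not pass the test, and its interval was narrow. It was read at 101, 97.2 and 100.3 CPM in Het_1024, Het_1025 and Het_1027, the order used for all values below. WT_1016, WT_1018 and WT_1026 had 104, 98.3 and 101.7 CPM. The groups overlapped. The log2 fold change was -0.02 (SE 0.04), and its 95% interval reached from 7.47% lower to 4.43% higher, and the adjusted p in edgeR was 0.863.

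*Papss2*, the synthase known for its role in cartilage and skeletal growth, was the one member with no overlap. The heterozygotes had 10.2, 10.3 and 9.68 CPM and the wild-type mice 10.5, 10.5 and 11.1 CPM. Every heterozygote was thus below every wild-type mouse, as for 7.70% of all tested genes. The log2 fold change was -0.09 (SE 0.06, 95% interval -0.22 to 0.04), which missed the call threshold with an adjusted p of 0.652 in edgeR. *Papss2* rested on 633 to 867 estimated counts per mouse, against 5939 to 7928 for *Papss1*. Without WT_1026 the log2 fold change was -0.06, and with average transcript lengths as offsets it was -0.13 in edgeR and in DESeq2. The average effective length of *Papss2* was 3211 ± 33.2 bases in the heterozygotes and 3127 ± 91.4 bases in the wild-type mice.

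Of 14 lists of cell type, region and handling markers, 5 had, like *Papss2*, a lower summed level in every heterozygote than in every wild-type mouse. Of single genes 7.70% had this order, which is not a matching background for sums over several genes. The other 9 lists overlapped, and 4 of them, neurons included, had a higher mean in the heterozygotes. Summed astrocyte markers were 1201 to 1250 CPM in the heterozygotes and 1279 to 1292 CPM in the wild-type mice, and 4 of 5 genes had a log2 fold change below 0. Microglial markers were 248 to 256 against 265 to 269 CPM (5 of 5 below 0), and endothelial markers 184 to 193 against 194 to 212 CPM (4 of 5). Choroid plexus markers were 388 to 451 against 469 to 476 CPM (6 of 6). Genes of heat shock and handling, *Fos* included, were 381 to 395 against 410 to 442 CPM (4 of 5). No gene of these lists was at 0 in all mice. Their part in the *Papss2* difference was not tested, and in bulk forebrain fewer cells of a type and less RNA per cell cannot be told apart.

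The balance of the synthases leaned strongly to *Papss1* in every mouse. The ratio of *Papss1* to *Papss2* TPM was 12.9, 12.4 and 13.6 in the heterozygotes and 12.3, 12.1 and 11.9 in the wild-type mice. All 3 heterozygotes lay above all 3 wild-type mice. On the log2 scale the ratio was 3.69 ± 0.07 against 3.60 ± 0.03, a difference of 0.10 (SE 0.04). The exact two-sided permutation test gave p = 0.1, the smallest that 3 against 3 mice allow, and 0.3 after Benjamini-Hochberg adjustment over the 3 balances tested. Leaving out 1 mouse moved the difference between 0.06, without Het_1027, and 0.13. The separation held on TPM with no constant added. On estimated counts in place of TPM the groups overlapped, with a difference of 0.06 (exact permutation p = 0.2), and they also overlapped on protein-coding transcripts only (0.09) and with 1 TPM added to both genes (0.09).

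**Figure D2:**
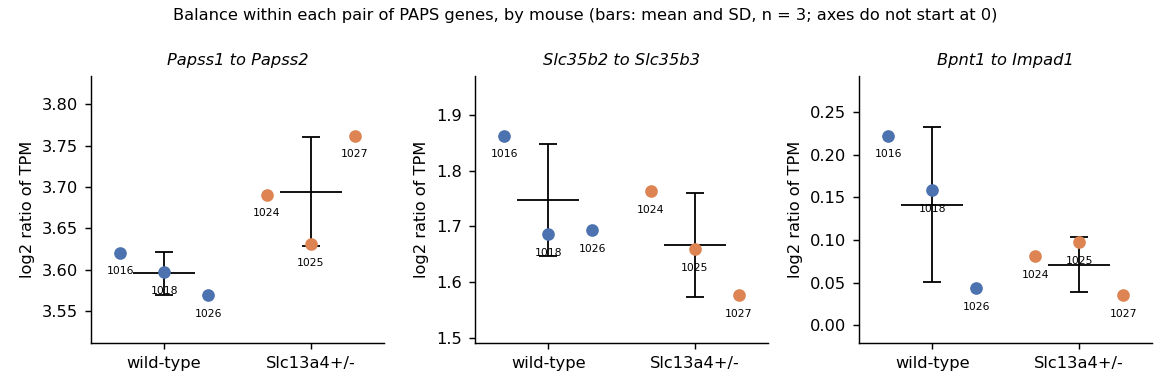
Log2 ratio of TPM within each pair of PAPS genes (y axes, which do not start at 0) by genotype (x axis), 1 point per mouse with bars for the mean and SD of 3 mice. The ratio of *Papss1* to *Papss2* is 3.63 to 3.76 in the heterozygotes and 3.57 to 3.62 in the wild-type mice, and the other ratios overlap.

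*Papss1* was divided mainly between a pair of protein-coding transcripts. Papss1-201 took 58.8% ± 0.586 of the gene's TPM in the heterozygotes and 59.2% ± 1.99 in the wild-type mice (exact permutation p = 0.9). The second, Papss1-205, has a noncoding exon 2 of 177 bases (chr3:131567502-131567678), and its coding sequence of 1809 bases is 63 bases shorter than that of Papss1-201. The 4 listed transcripts with this exon together held 41.2% ± 0.586 and 40.8% ± 1.99. The choice between these forms thus differed by less than the spread between mice, and the difference of -0.43 points was 0.699 points without WT_1016 and -1.17 points without WT_1026.

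In *Papss2* most reads were assigned to the downstream start, which follows the window with 1 CpG. Papss2-203, which begins there, held 80.4%, 85.8% and 82.5% of the gene's TPM in the heterozygotes and 71.8%, 82.5% and 79.6% in the wild-type mice. The upstream start with the CpG-rich window, used by Papss2-202, held 18.4%, 14.2% and 16.1% against 28.2%, 17.5% and 19.0%. WT_1016 had the highest upstream share, WT_1026 was slightly above all heterozygotes and WT_1018 lay among them. The share of Papss2-203 was 82.9% ± 2.73 against 78.0% ± 5.52 (exact permutation p = 0.3, adjusted 0.667 over 5 genes). Without WT_1016 the difference of 4.92 points was 1.84 points. As a transcript, Papss2-202 had a log2 fold change of -0.57 (SE 0.27, unadjusted p = 0.0764 in edgeR) on 58.9 to 123 counts per mouse. Papss2-203 had -0.07 (SE 0.08). Papss2-203 also ends 1475 bases beyond Papss2-202, so their division rests on the last exon as well as on the start.

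Few reads were assigned to the *Papss2* transcript with the 15-base exon. Papss2-201 held 1.17%, 0% and 1.46% of the gene's TPM in the heterozygotes and 0%, 0% and 1.36% in the wild-type mice, from 0 to 12.9 counts. In the 3 mice with 0 counts, 3 counts would be 0.422% to 0.474% of all counts of the gene (counting error only). This is not a limit on the share, because only reads over the exon or the junction that skips it show its use. The number of such reads was not measured, so no upper limit is given. No difference between genotypes was detectable at this depth.

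**Figure D3:**
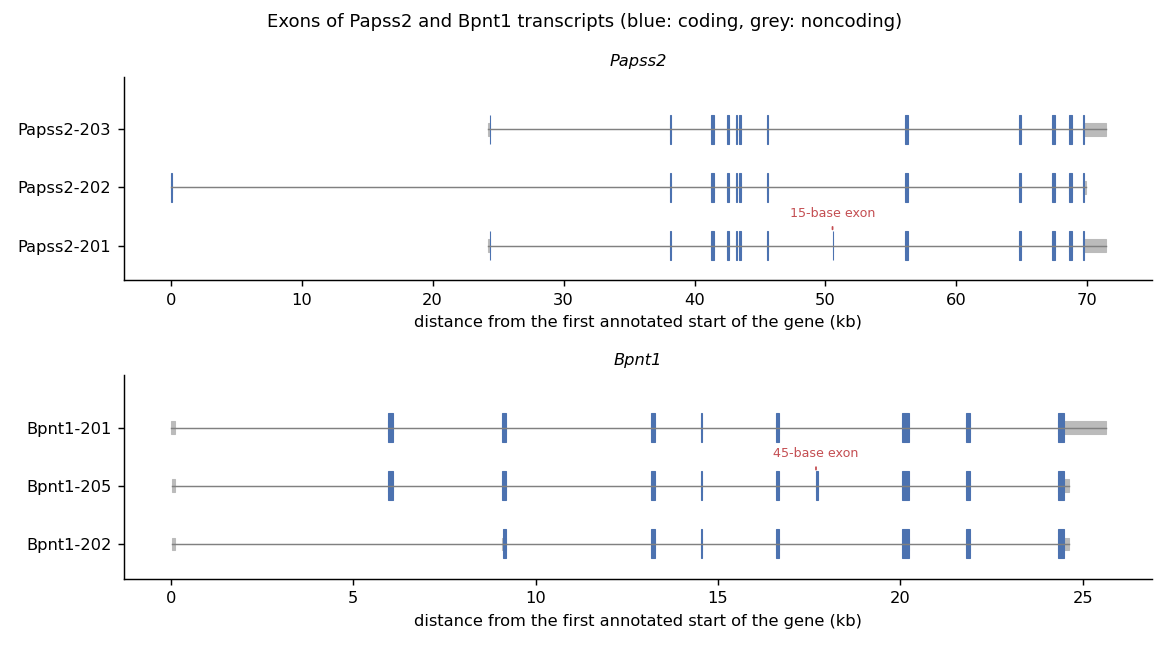
Exon maps of the 3 *Papss2* transcripts (top) and of the main 3 *Bpnt1* transcripts (bottom) against the distance from the first annotated start of the gene (x axis, kb), with coding parts in blue and noncoding parts in grey. Papss2-202 begins 24215 bases before the other *Papss2* transcripts, the 15-base exon is in Papss2-201 and the 45-base exon in Bpnt1-205.

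*Slc35b2* (chr17:45563874-45567671, plus strand), the main Golgi carrier of PAPS by level, had a fitted decrease that rested on the wild-type mice used. It was read at 28.3, 26.4 and 28.3 CPM in the heterozygotes and at 34.2, 30.2 and 27.8 CPM in the wild-type mice. WT_1016 was the highest and WT_1026 lay among the heterozygotes. The log2 fold change was -0.15 (SE 0.07, 95% interval -0.31 to 0.01), with an unadjusted p of 0.0676 and an adjusted p of 0.578 in edgeR. Without WT_1016 it was -0.06 (adjusted p 0.892 in edgeR), and without WT_1026 it was -0.22 (unadjusted p 0.00566, adjusted p 0.138 in edgeR). In the fit without WT_1026, 1.29% of all genes were called and 8.60% were lower at an unadjusted p under 0.05.

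The second carrier, *Slc35b3* (chr13:38932136-38960875, minus strand), did not separate the genotypes. It had 9.01, 9.30 and 9.89 CPM in the heterozygotes and 9.91, 9.74 and 9.13 CPM in the wild-type mice, so the groups overlapped throughout. The log2 fold change was -0.03 (SE 0.06), with a 95% interval from 11.5% lower to 8.54% higher. The ratio of *Slc35b2* to *Slc35b3* TPM was 2.98 to 3.40 in the heterozygotes and 3.22 to 3.64 in the wild-type mice. On the log2 scale it differed by -0.08 (SE 0.08, exact permutation p = 0.4, adjusted 0.4). Leaving out 1 mouse moved this difference between -0.13, without Het_1024, and -0.02, without WT_1016, and it was -0.04 without Het_1027.

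Most of the *Slc35b2* TPM, 79.9% to 83.8% per mouse, lay on 2 protein-coding transcripts that differ at their 5' end. Slc35b2-205 starts 331 bases upstream of Slc35b2-202 and has a coding sequence of 1293 bases against 1146. Within this pair Slc35b2-205 held 49.6%, 50.2% and 49.7% of the TPM in WT_1016, WT_1018 and WT_1026. In the heterozygotes it held 44.3%, 26.7% and 51.6%, so Het_1025 alone stood far from the rest. The share of Slc35b2-202 in the gene was 48.1% ± 9.35 in the heterozygotes and 41.6% ± 0.608 in the wild-type mice (exact permutation p = 0.4, adjusted 0.667 over 5 genes). Without Het_1025 the difference of 6.58 points fell to 1.37 points. Another coding transcript, Slc35b2-207, held 8.96% to 12.7%. The annotation also lists Slc35b2-201, a coding transcript identical in sequence to Slc35b2-204, which is annotated as a retained intron. The files list only Slc35b2-204, so the counts under that name cannot be given to either annotation.

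*Slc35b3* had more transcripts of some weight than any other member. Of its 12 listed transcripts, 5 held at least 5% of the gene's TPM on average. Slc35b3-202 led with 38.9% ± 3.05 in the heterozygotes and 37.6% ± 5.08 in the wild-type mice (exact permutation p = 0.8). It was followed by Slc35b3-209 with 18.6% and by Slc35b3-210, annotated as subject to nonsense-mediated decay, with 10.4% over the 6 mice. Slc35b3-208 held 9.77% and Slc35b3-207 7.47%. Transcripts not annotated as protein coding held 10.3% to 23.3% of *Slc35b3*, both extremes being wild-type mice, against 2.12% to 3.94% of *Papss1*. The whole gene had 589 to 740 estimated counts per mouse.

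**Figure D4:**
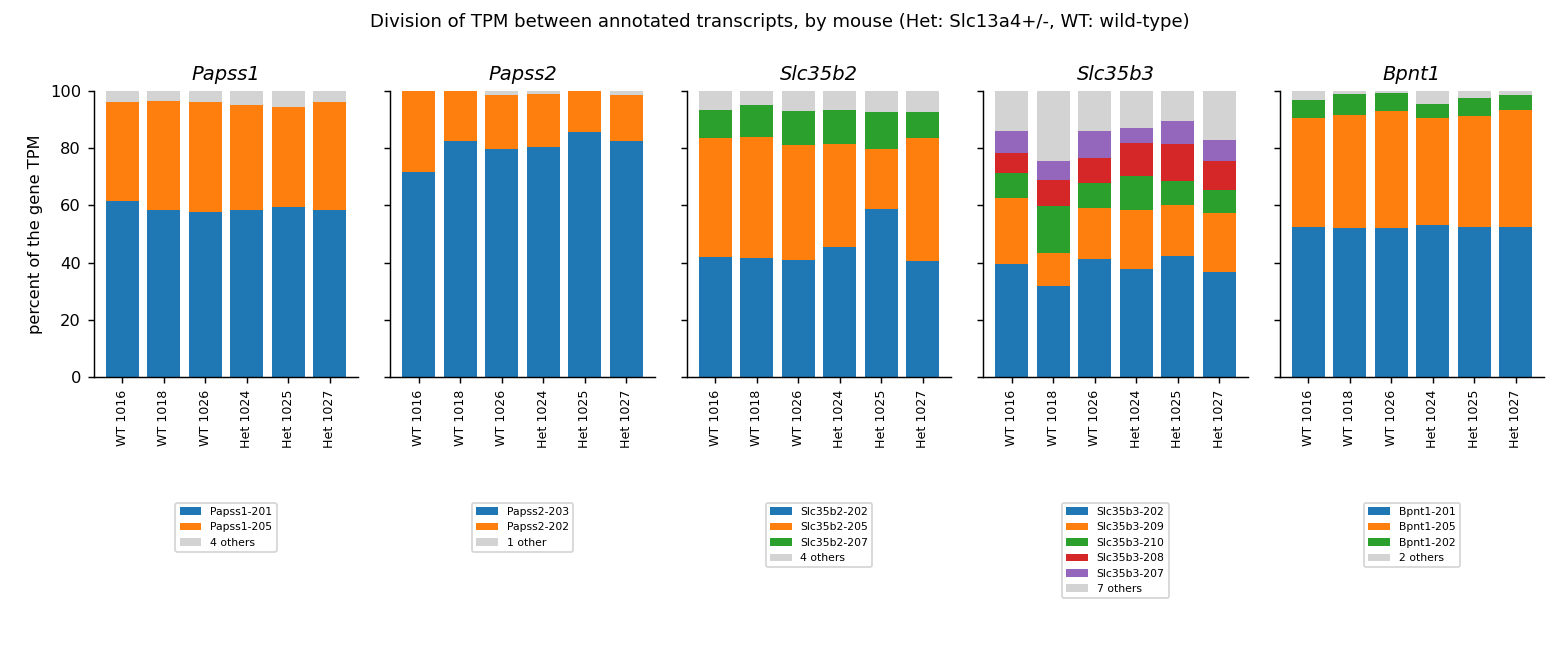
Percent of each gene's TPM (y axis) on each transcript that holds at least 5% of it, with the others in grey, in each mouse (x axis, WT wild-type and Het *Slc13a4*+/-). Bpnt1-201 holds 52.0% to 53.1% of *Bpnt1* in all 6 mice, whereas *Slc35b2* departs in Het_1025 and *Papss2* in WT_1016.

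*Bpnt1*, the cytosolic PAP phosphatase, was lower on average in the heterozygotes without passing the test. It was read at 74.0, 72.2 and 72.4 CPM in the heterozygotes and at 79.5, 79.9 and 73.5 CPM in the wild-type mice. WT_1016 and WT_1018 were above all heterozygotes and WT_1026 lay among them. The log2 fold change was -0.09 (SE 0.04, 95% interval from 12.4% lower to 0.474% higher), with an unadjusted p of 0.0643 and an adjusted p of 0.569 in edgeR. Without WT_1026 it was -0.13 (unadjusted p 0.00408, adjusted p 0.126 in edgeR), when 8.60% of all genes were lower at an unadjusted p under 0.05. Without WT_1016 it was -0.07.

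*Impad1* (chr4:4762484-4793355, minus strand), the Golgi PAP phosphatase, was steady across the mice. Its values were 289, 278 and 289 CPM in the heterozygotes and 282, 293 and 292 CPM in the wild-type mice. The groups overlapped, and the log2 fold change of -0.02 (SE 0.04) had a 95% interval from 6.94% lower to 4.75% higher. The ratio of *Bpnt1* to *Impad1* TPM on the log2 scale was 0.07 ± 0.03 in the heterozygotes and 0.14 ± 0.09 in the wild-type mice (exact permutation p = 0.3, adjusted 0.4). The difference of -0.07 was -0.03 without WT_1016 and -0.12 without WT_1026. *Impad1* has 1 annotated transcript, so its reads are not divided between transcripts of the same gene. Its estimated counts were not whole numbers, so reads shared with other genes may still be divided by the model.

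By the assigned reads, the 45-base exon of *Bpnt1* was common, unlike that of *Papss2*. Bpnt1-205, which carries it, held 39.4%, 39.9% and 41.7% of the summed TPM of Bpnt1-201, Bpnt1-202 and Bpnt1-205 in the heterozygotes. The wild-type mice had 39.6%, 39.8% and 41.2%. The groups overlapped. Bpnt1-201, without the exon, held 53.1%, 52.5% and 52.5% of the gene in the heterozygotes and 52.3%, 52.2% and 52.0% in the wild-type mice. The order of the mice was complete, but the difference was 0.53 points (exact permutation p = 0.1, adjusted 0.5 over 5 genes). The order was not complete on shares of estimated counts, where the difference was 0.816 points (exact permutation p = 0.3), and without Het_1024 the difference of TPM shares was 0.325 points. Since Bpnt1-201 also ends 996 bases beyond Bpnt1-205, the division does not rest on the exon alone.

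Of the 34 listed transcripts of the 6 genes, 25 could be tested, and 0 were called in edgeR over 54721 transcripts, where 0% of all were called. The smallest adjusted p was 0.665, and DESeq2 on transcript counts called 0 as well. At an unadjusted p under 0.05, 3 were lower and 0 higher, against 3.39% and 4.02% of all transcripts. Bpnt1-202, which lacks the first coding exon of Bpnt1-201, had 2.04, 2.47 and 2.02 CPM against 2.86, 3.43 and 2.73 CPM (log2 fold change -0.47, SE 0.16). It held 4.74% to 6.09% of the gene's TPM in the heterozygotes and 6.11% to 7.44% in the wild-type mice. Bpnt1-205 had 19.4, 18.9 and 20.2 CPM against 21.5, 21.8 and 21.0 CPM (log2 fold change -0.14, SE 0.05). Both were lower in every heterozygote, as were 7.28% of all transcripts, and they share reads with each other. Slc35b3-201 had 0.0775, 0 and 0.226 CPM against 0.52, 1.26 and 0.403 CPM, at 3.54% of the gene's TPM. In the other direction, Slc35b3-208 was higher in every heterozygote (1.47, 1.65 and 1.43 CPM against 1.02, 1.28 and 1.16 CPM), as were 8.87% of all transcripts, without passing that p.

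**Figure D5:**
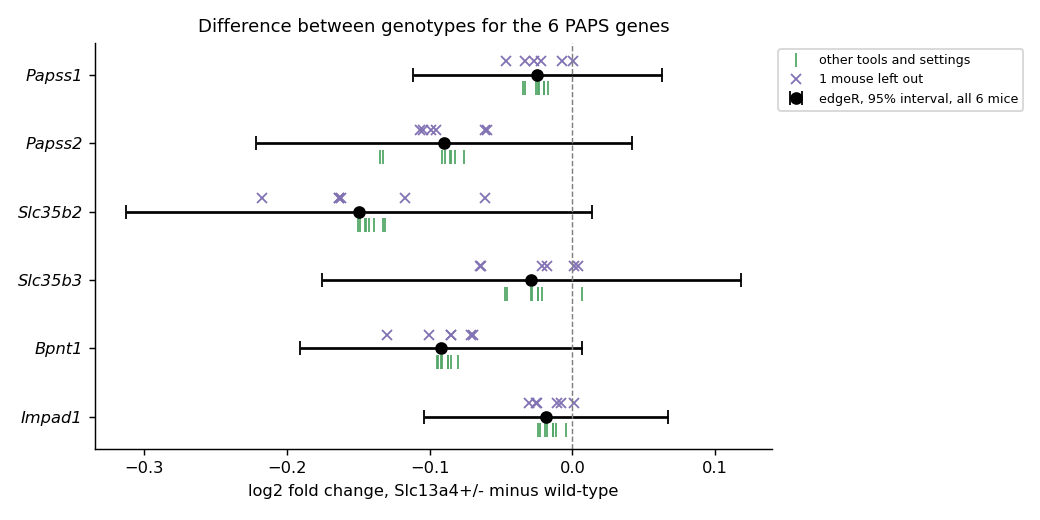
Log2 fold change between *Slc13a4*+/- and wild-type mice (x axis) for the 6 PAPS genes (y axis), as black points with 95% intervals from edgeR, with crosses for fits without 1 mouse and green ticks for other tools and settings. All 6 intervals include 0, and the crosses of *Slc35b2* spread from -0.22 to -0.06.

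Few genes of related lists were called in any fit. The lists hold sulfate transporters, sulfotransferases, relatives of the PAPS phosphatases and carriers, and exoribonucleases that PAP inhibits. Of 76 genes in 6 lists, 63 were tested and 0 were called in edgeR. DESeq2 called 1, *Slc13a4*, with length offsets (0.502% of all its genes were called) and without them (0.314%). Without WT_1026 edgeR called 2, *Slc13a4* and *Xrn1*, where 1.29% of all genes were called. With no filter on low counts it called *Slc13a4*. At an unadjusted p under 0.05 in edgeR, 3 were lower and 1 higher, and 28 had a log2 fold change below 0. Over all tested genes, 4.17% were lower at that p, 9.15% passed it in either direction and 52.2% were below 0. The median of the listed genes was 0.01. Among the sulfate transporters, 9 of 10 were tested and only *Slc13a4* was below 0, with a list median of 0.08. *Slc26a6*, an anion exchanger and the highest of them at 19.3 TPM, had a log2 fold change of 0.08 (SE 0.06).

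Of the Golgi sulfotransferases, which use the PAPS brought in by the carriers, 32 of 36 were tested, with a median of -0.01. Of these, 18 were below 0, beside 52.2% of all tested genes. *Gal3st1*, which makes the myelin lipid sulfatide, had the smallest p. It was read at 21.7 to 24.7 CPM in the heterozygotes and 25.5 to 27.8 CPM in the wild-type mice (log2 fold change -0.15, SE 0.06, unadjusted p = 0.0364, adjusted p 0.530 in edgeR). Every heterozygote was below every wild-type mouse, as for 7.70% of all tested genes. Oligodendrocyte markers summed to 7206 to 8395 CPM and 8157 to 9101 CPM in the same mice, with 5 of 5 below 0, and their part in the *Gal3st1* difference was not tested. *Chst1*, a sulfotransferase of keratan sulfate and the highest of the list at 75.6 TPM, had -0.05 (SE 0.06).

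Cytosolic sulfotransferases draw on PAPS outside the Golgi, and 4 of 11 passed the filter (median 0.05). *Sult4a1*, a sulfotransferase found mainly in brain, was high at 329.5 TPM with a log2 fold change of -0.03 (SE 0.05), and *Sult2b1*, which sulfates sterols, had -0.13 (SE 0.07). The relatives of the phosphatases in the lithium-sensitive family had a median of 0.00 over 4 of 5 tested genes. *Impa1*, an inositol monophosphatase, was at 85.3 TPM with -0.04 (SE 0.04), and the gluconeogenic enzyme *Fbp1* at 0.291 TPM with -0.52 (SE 0.33). Relatives of the PAPS carriers, nucleotide sugar transporters among them, had 12 of 12 tested and a median of 0.01. Of these, 5 were below 0, beside 52.2% of all tested genes. *Slc35a3*, a carrier of UDP-N-acetylglucosamine, had 0.07 (SE 0.04), and *Slc35b1*, the highest of the list at 73.1 TPM, had -0.06 (SE 0.05).

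The exoribonucleases *Xrn1* and *Xrn2* are enzymes that PAP inhibits, and both were above 0. *Xrn2* was read at 61.0 to 64.9 CPM in the heterozygotes and 58.7 to 59.1 CPM in the wild-type mice, without overlap, as for 15.0% of all genes in either direction. Its log2 fold change was 0.10 (SE 0.04, unadjusted p = 0.0294, adjusted p 0.524 in edgeR). *Xrn1* was called without WT_1026 (log2 fold change 0.25, adjusted p 0.0916 in edgeR) and not with all 6 mice (0.16). The fit without WT_1026 called 1.29% of all genes.

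Genes whose log2 CPM followed the synthases most closely over the 6 mice were sought among 14355 genes with at least 1 CPM, as a description. For *Papss1* they were *Il16* (a cytokine precursor), *Zfp651* (a zinc finger gene) and *Klc1* (a kinesin light chain), with Pearson r of 0.996, 0.986 and 0.985 and Spearman rho of 1, 1 and 0.943. For *Papss2* they included *Cds1* (a phospholipid synthesis enzyme) and *Slc48a1* (a haem transporter), with r of 0.995 and 0.993 and rho of 1 and 0.943. With 6 mice, 129 genes had an r above 0.9 with *Papss1* and 105 with *Papss2*, and the points share their libraries and depth.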

How the data were processed

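RNA was isolated at P20 from whole forebrains of 3 wild-type and 3 *Slc13a4*+/- mice, and stranded, rRNA-depleted libraries were sequenced. The authors quantified transcripts by Salmon (v1.2.0; mapping checks and GC bias correction switched on) and tested genes with DESeq2 after import with tximeta. The deposited expected counts are estimates that need not be whole, and the deposited TPM values are scaled to transcript length and to 1000000 per mouse. The sources used here do not state the transcript set or build of the Salmon index.

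The 117135 listed transcripts were matched to GENCODE M21 (GRCm38) by identifier, 563 of them with another version number. The 1162 unmatched ones held 0.620% to 0.645% of counts and were left out. Expected counts of a gene's transcripts were summed, then rounded. Genes were tested with edgeR 4.0.16 (R 4.3.3; quasi-likelihood test, default filter, TMM), with Benjamini-Hochberg adjustment over 17096 genes and a call at an adjusted p under 0.1. Transcripts were tested in the same way over 54721 transcripts. The uncertainty of dividing reads between similar transcripts is not in that error. Balances (log2 TPM ratios, no pseudocount) and transcript shares were compared by exact two-sided permutation tests (SciPy 1.17.1). DESeq2 1.42.0, other normalizations, filters and transcript sets, and leaving out each mouse were alternatives. The edgeR fit was tested on simulated data. Their changes were larger than those of the 6 genes, and their spread was below that of the transcripts. No library was a copy of another, as chi-square per gene was 6.84 or more for every pair. Promoter sequences are from RefSeq (GRCm38.p6), where 5 of the 6 members matched, and exon sequences are from GENCODE M21. The text names all 6 members, their transcripts with at least 5% of the gene's TPM or an unadjusted p under 0.05, the gene with the smallest p and the one with the highest TPM in each list, and the 3 genes most like each synthase, of which 1 is not reported here. The transcripts below 5% were chosen after their values were seen. The members and lists were chosen with earlier results of these data known.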

Additional observations from a re-analysis of the deposited data

How the results depend on the processing

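Of 195 values under alternative settings for 23 results, 185 were scored as unchanged, 8 changed sign and 2, both levels, moved. Balances and shares were compared by permutation tests that cannot go below p = 0.1. Their side of the threshold was thus fixed in advance, and only their direction could change. The count of members below 0 was 4 to 6 and was scored as unchanged throughout. The number of members and of transcripts called was 0 throughout. *Slc35b3* moved from -0.03 to 0.0067 on protein-coding transcripts only. That setting leaves out transcripts not annotated as protein coding, and it lowered the level of *Papss1* to 82.6 TPM and that of *Slc35b3* to 10.1 TPM. Leaving out 1 mouse gave log2 fold changes of -0.047 to 9.56e-05 for *Papss1*, -0.11 to -0.06 for *Papss2*, -0.22 to -0.06 for *Slc35b2*, -0.065 to 0.0042 for *Slc35b3*, -0.13 to -0.07 for *Bpnt1* and -0.030 to 0.0010 for *Impad1*. The signs of *Papss1* (without WT_1016), *Slc35b3* (without Het_1024 or WT_1016) and *Impad1* (without Het_1025) therefore changed, by values near 0. The difference in the share of the main transcript ranged from -1.17 to 0.699 points for *Papss1* and from -1.51 to 3.26 points for *Slc35b3*. The cause was not tested. No paired analysis was possible because the groups share no replicate numbers and no label ties the mice to litters. *Papss2* and *Slc35b3* had the fewest counts, 633 to 867 and 589 to 740 per mouse.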
